A study of Mus musculus with 2 samples.

Results

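The LIF receptor, JAK and Stat3 axis is the route by which leukemia inhibitory factor (LIF) acts on mouse embryonic stem cells (mESCs). The 10 genes described here were taken by name from the array: the receptor subunits Lifr and Il6st, the Janus kinases Jak1, Jak2 and Tyk2, the transcription factor Stat3, and the Stat3 targets Socs3, Pim1, Pim3 and Gbx2. Each was matched to 1 identifier among the 30774 on the array. Jak1 and Pim3 have no Entrez gene number there, so further identifiers of these genes could not be looked for by number. B6 mESCs, labelled as derived from inner cell mass of strain B6, were grown in serum-containing medium with LIF, and were either left without or given CHIR99021 (CHIR) for 12 h. CHIR inhibits GSK3 and so activates Wnt/β-catenin signaling. LIF was present in both cultures, so every difference below is on top of LIF and none is a response to LIF itself. Total RNA was hybridized to Illumina mouse beadchips, with 1 array for LIF and 1 for LIF with CHIR (LIF/CHIR). The study's methods describe the culture of 46C mESCs and not of the B6 line, and the dose of CHIR used for the arrays is not given in the sources used here. As each condition has a single array, no difference could be checked against replicates and none was tested.

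Lifr is the subunit that recognizes LIF, and Il6st (gp130) is its partner, used by the whole IL-6 family of cytokines. Neither has enzyme activity of its own, so the signal is passed on by Janus kinases that sit on their intracellular tails, and Stat3 is the factor that carries it to the genome. Among the genes that Stat3 switches on are Socs3, an inhibitor that shuts the receptor complex down again, the serine/threonine kinases Pim1 and Pim3, and the homeobox gene Gbx2, all linked to mESC self-renewal.

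A signal here is the deposited brightness of an identifier, linear and background-subtracted. Whether the arrays were also normalized against each other is unknown, since tables labelled as normalized and as not normalized hold the same values. Its detection p-value compares it with the negative controls of the same array, and an identifier with a p-value under 0.01 was taken as detected. Probes differ in brightness for the same amount of RNA, so signals were compared between arrays and not between genes. Of the 10 genes, 7 were detected on both arrays and 3 (Il6st, Jak1 and Jak2) on neither. None of the 7 differed by 1.5-fold or more in either direction. Among all 9615 identifiers detected on at least 1 array, 4.11% were higher by 1.5-fold or more and 4.02% lower by 1.5-fold or more, so that a count of 0 among 7 genes is close to this background. The median log2 fold change of the 7 was 0.14, beside 0.00 for all detected identifiers. Tyk2, Stat3, Socs3 and Pim1 had the higher signal in LIF/CHIR, and Lifr, Pim3 and Gbx2 in LIF.

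**Figure D1:**
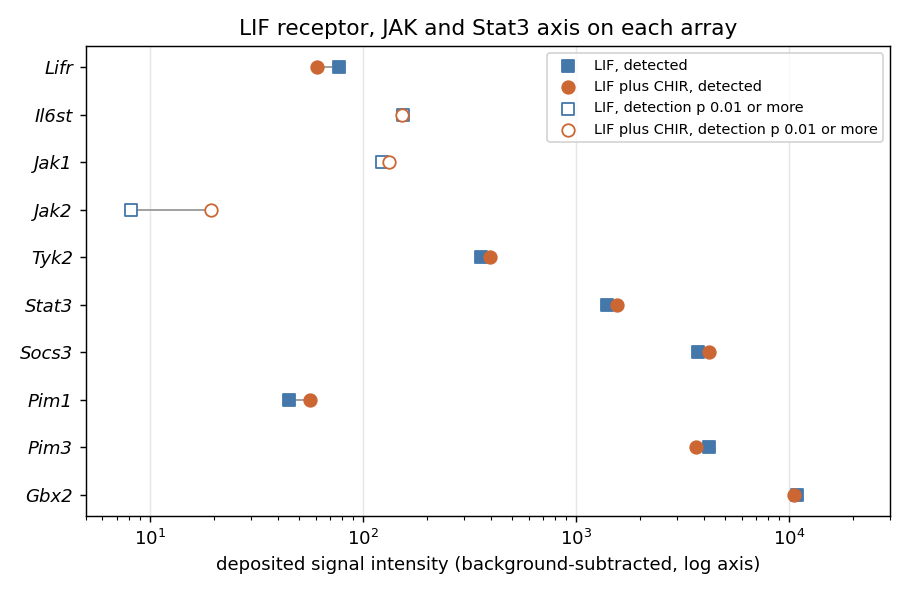
Signal intensity of the 10 genes (log axis) in LIF (squares) and in LIF/CHIR (circles), 1 array each, with open symbols for a detection p-value of 0.01 or more. The symbols of each detected gene lie close together, and the widest gap belongs to Jak2, which was detected on neither array.

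Because cultures were not repeated, each fold change was set beside those of the 1000 detected identifiers nearest to the gene in mean signal. The range that holds 95% of them describes how far identifiers of that brightness moved between the arrays. It includes real changes as well as array error, lies across genes, and is not an error of the gene. All 7 detected genes lay inside their range.

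The receptor subunits come first. Lifr (chromosome 15, band 15qA1 in the array annotation) had a signal of 77.4 in LIF and 61.0 in LIF/CHIR, with detection p-values of 0.000897 and 0.00208. The signal was thus 1.27-fold lower with CHIR (log2 fold change -0.35). Of the 1000 identifiers of like brightness, 37.6% moved at least as far in either direction, and 95% lay between -0.93 and 0.93.

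Il6st (13qD2.2) had a signal of 155.0 in LIF and 153.4 in LIF/CHIR, a ratio of 0.99. Its detection p-values, 0.18 and 0.437, left it undetected, although both signals exceeded the single-probe level, the dimmest signal detected with what appears to be 1 probe (51.9 in LIF and 47.1 in LIF/CHIR). The p-values of Il6st are not whole multiples of 1 over the number of negative controls, the step that single probes show, so its row appears to combine several probes. Such combined p-values can be high beside a bright mean signal: 278 identifiers had a signal of 1000 or more on an array and were detected on neither, and the p-values of all 278 showed several probes. For Il6st the p-value therefore does not say that the RNA was absent. By the same sign, the rows of Lifr, Tyk2, Jak2 and Pim1 also appear to combine several probes.

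Of the Janus kinases, Tyk2 was detected on both arrays. Tyk2 (9qA3) had a signal of 359.5 in LIF and 395.9 in LIF/CHIR, 1.10-fold higher with CHIR (log2 fold change 0.14). Among identifiers of like brightness, 51.4% moved at least as far. Jak1, a kinase that binds Il6st, had signals of 122.7 and 133.1, a ratio of 1.09. Its detection p-values were 0.472 in LIF and 0.166 in LIF/CHIR, and its row also appears to combine several probes, with a signal above the single-probe level. The array annotation gives Jak1 no Entrez gene number and no position. Jak2 (19qC1) had a signal of 8.17 in LIF and 19.5 in LIF/CHIR, with detection p-values of 0.184 and 0.127. Neither signal reached the single-probe level, so no fold change is given for Jak2.

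Stat3 (Entrez gene 20848, band 11qD) was bright on both arrays, with 1403 in LIF and 1563 in LIF/CHIR. This is a 1.11-fold higher signal with CHIR (log2 fold change 0.16). The range of its neighbours was -0.48 to 0.46, and 36.7% of them moved at least as far. The arrays report RNA, so the phosphorylation that activates Stat3 was not measured.

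The 4 target genes did not share a direction. Socs3 (Entrez gene 12702, band 11qE2) had a signal of 3733 in LIF and 4234 in LIF/CHIR, 1.13-fold higher (log2 fold change 0.18), and 21.6% of its neighbours moved at least as far. Pim1 (17qA3.3) was dim, with 45.2 in LIF and 56.6 in LIF/CHIR and detection p-values of 0.00148 and 0.000146. Its signal was 1.25-fold higher (log2 fold change 0.32), well inside the range of -1.04 to 1.15 at that brightness. Its signal in LIF lay below the single-probe level, and with that level as the minimum signal its log2 fold change was 0.12. Pim3, which the annotation also leaves without a position, had 4238 in LIF and 3649 in LIF/CHIR. The signal was 1.16-fold lower with CHIR (log2 fold change -0.22), and 15.9% of its neighbours moved at least as far, the lowest share among the 7 genes. Gbx2 (1qD) had 10911 in LIF and 10550 in LIF/CHIR, a log2 fold change of -0.05, and 66.1% of its neighbours moved at least as far.

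**Figure D2:**
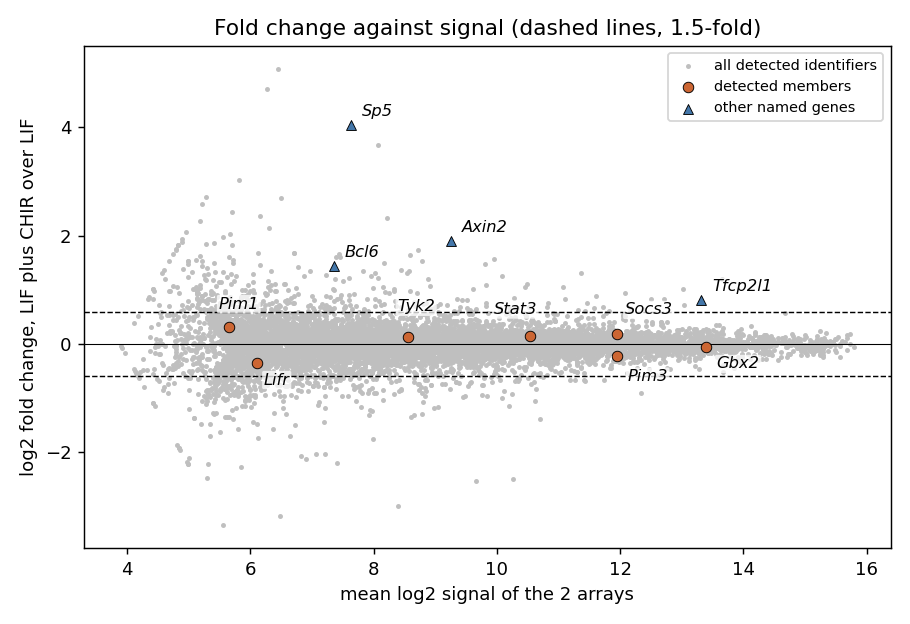
Log2 fold change of LIF/CHIR over LIF against the mean log2 signal of both arrays, for 9615 detected identifiers (grey), the 7 detected genes of the axis (orange) and 4 other named genes (triangles), with dashed lines at 1.5-fold. The 7 genes lie between the dashed lines, and the grey cloud widens toward low signal, where Pim1 and Lifr lie.

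The width of the cloud sets what could be seen. Below 100 in the brighter array, as for Lifr and Pim1, 20.7% of 1825 detected identifiers were past 1.5-fold in either direction. From 100 to under 1000, where Tyk2 lies, it was 7.34% of 4521, and at 1000 or more, where Stat3, Socs3, Pim3 and Gbx2 lie, 2.20% of 3269. At that top brightness 95% of log2 fold changes lay between -0.42 and 0.42. The position of each gene in the order of signals on its own array was also compared. Normalization that preserves this order leaves the position unaltered. The largest move among the 7 detected genes was 2.05 percentile points, for Pim1. Of all detected identifiers, 95% moved by at most 4.19 points. At high signal, however, even a clear difference can give a small move. Tfcp2l1, described below, had a 1.76-fold higher signal with CHIR and moved by 0.92 points. The small moves of Stat3, Socs3, Pim3 and Gbx2 therefore do not show that their signals were stable.

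The labels were checked with Axin2, a feedback target of Wnt/β-catenin signaling. Its signal was 314.1 in LIF and 1178 in LIF/CHIR, 3.75-fold higher (log2 fold change 1.91), a difference that does not go against the labels. Of the 5 genes listed for this check, 2 were detected on neither array and so could not check the labels. Of 8 mESC markers, 6 were detected on both arrays, 3 higher and 3 lower with CHIR and none by 1.5-fold. All 6 had 1000 or more in the brighter array, where 2.2% of detected identifiers were past 1.5-fold in either direction. The log2 fold changes of the 6 ran from -0.49 for Utf1 to 0.55 for Nanog, with Pou5f1 at -0.13. The ranges at like brightness were -0.33 to 0.41 for Utf1, -0.46 to 0.42 for Nanog and -0.31 to 0.32 for Esrrb. All 3 lay outside their range, Esrrb at 0.36. Pou5f1, Zfp42 and Dppa5a lay inside theirs. Sox2 and Tdgf1 were detected on neither array. Sox2 had 441.2 in LIF and 400.2 in LIF/CHIR, over the single-probe level, with combined detection p-values of 0.0503 and 0.276. For Sox2 the p-value thus does not say that the RNA was absent. Tdgf1 was dim, with 26.6 and 14.6. The summed signal of the 8 was 90638 in LIF and 89903 in LIF/CHIR. Of 7 fibroblast markers none was detected, their summed signal was 211.9 and 205.5, and Col1a1, Col3a1, Postn and Dcn were below 0 on both arrays. Thy1 of that list had 222.3 and 225.3, over the single-probe level with combined p-values of 0.354 and 0.302, so that for Thy1 too the p-value does not say that the RNA was absent. Of 6 endoderm markers 1 was detected, Sox7 at 45.9 and 59.0, and the summed signal of the 6 was 112.0 and 93.7. Of 5 markers of post-implantation epiblast, 3 were detected and all 3 were lower with CHIR: Pou3f1 at 2902 and 516.2, Otx2 at 947.4 and 119.7, and Dnmt3b at 15438 and 10870. The summed signal of that list was 19353 in LIF and 11527 in LIF/CHIR, most of it from Dnmt3b. The part of these markers in the values of the axis was not tested. In RNA from whole cultures, fewer cells of a type and less RNA per cell cannot be told apart.

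The rest of the pathway was described with 6 further lists of 66 genes, all found on the array, of which 35 were detected on at least 1 array. Of these 35, 6 were higher in LIF/CHIR by 1.5-fold or more and 1 was lower by as much, beside 4.11% and 4.02% of all detected identifiers. Sp5 is among the 6, and the study picked it from these arrays partly because CHIR raised it by at least 1.5-fold. Its place past the limit was thus fixed in advance. The median log2 fold change of the 35 was -0.09.

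Of the 8 ligands of the IL-6 family, 2 were detected. Osm (oncostatin M) had 72.2 in LIF and 124.8 in LIF/CHIR, 1.73-fold higher (log2 fold change 0.79). Among identifiers of like brightness 5.10% moved at least as far. Ctf1 (cardiotrophin 1) had 331.4 and 289.0, a log2 fold change of -0.20. Il11 (interleukin 11) was detected on neither array, with 12.5 in LIF and 24.4 in LIF/CHIR, and Lif itself had 6.86 and 4.40.

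Of 7 other receptors that pair with Il6st or resemble it, 3 were detected. Il6ra, which binds IL-6, had 22.0 in LIF with a detection p-value of 0.0137 and 63.3 in LIF/CHIR with a p-value of 3.57e-06. As it was not detected in LIF, the ratio of 2.88 is not a measured size, and with the single-probe level as the minimum signal its log2 fold change was 0.29. Il11ra1, the interleukin 11 receptor, had 719.8 and 525.8, 1.37-fold lower with CHIR (log2 fold change -0.45), and 6.90% of its neighbours moved at least as far. The mouse genome holds near-identical copies of this receptor gene, so its value is uncertain. Il27ra, the interleukin 27 receptor, was detected in LIF alone, so its log2 fold change of -0.44 is not a measured size either, and with the single-probe level as the minimum signal it was -0.14.

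Of the other Janus kinase and STAT factors, 4 of 7 were detected. Jak3, best known from lymphoid cells, had 146.7 in LIF and 222.5 in LIF/CHIR, 1.52-fold higher (log2 fold change 0.60), just past the limit, and 7.50% of its neighbours moved at least as far. With normexp background correction it was inside the limit, at 0.55 when fitted on identifiers with 1 probe and 0.07 when fitted on all. Stat2, a factor of interferon signaling, had 120.1 and 160.4 (log2 fold change 0.42). Stat4 had 165.3 and 113.4 and was detected on neither array, with combined detection p-values of 0.138 and 0.0461. Both signals were over the single-probe level, so the p-values do not say that its RNA was absent.

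Of 15 inhibitors of JAK–STAT signaling other than Socs3, 8 were detected and none passed 1.5-fold in either direction, a count close to the background of 4.11% and 4.02%. Of the 8, 6 were lower and 2 higher with CHIR, and the median log2 fold change was -0.12. Socs2 had 6633 in LIF and 5813 in LIF/CHIR (log2 fold change -0.19). Pias1 had 1271 and 1178 (log2 fold change -0.11), and Pias4 had 1677 and 1821 (log2 fold change 0.12). Of 10 adaptors and enzymes of the MAPK and PI3K branches of the receptor, 5 were detected and none passed the limit. This count too is close to the background of 4.11% and 4.02%. Of the 5, 2 were higher and 3 lower with CHIR, and the median log2 fold change was -0.04. Gab1, a docking protein, had 11070 and 10382 (log2 fold change -0.09), and the adaptor Shc1 had 2448 and 2151 (log2 fold change -0.19). The combined detection p-values of Shc1 were 0.0581 in LIF and 0.00556 in LIF/CHIR. It thus counted as detected with CHIR alone, although its signal was higher in LIF.

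Of 19 other known Stat3 targets, 13 were detected, of which 3 were higher and 1 was lower by 1.5-fold or more, where the background is 4.11% and 4.02%. The 3 higher genes include Sp5, whose place past the limit was fixed in advance. Bcl6, a transcriptional repressor, had 99.6 in LIF and 271.9 in LIF/CHIR, 2.73-fold higher (log2 fold change 1.45), and 0.9% of its neighbours moved at least as far. Tfcp2l1, a factor of naive pluripotency that the array lists as Tcfcp2l1, had 7658 and 13485, 1.76-fold higher (log2 fold change 0.82). Of its neighbours 0.7% moved at least as far. Sp5 had 48.8 in LIF, with a detection p-value of 0.015, and 809.5 in LIF/CHIR, so that the size of its difference is not measured. Pim2, the third Pim kinase, had 89.3 and 55.3, 1.61-fold lower (log2 fold change -0.69), at a brightness where 10.5% of neighbours moved at least as far. The Pim genes therefore had log2 fold changes of 0.32 for Pim1, -0.69 for Pim2 and -0.22 for Pim3, of which the first and second rest on dim signals. The kinase gene Sgk1 had 27694 and 27835 (log2 fold change 0.01). Klf5 had 7356 and 8295, a ratio of 1.13, but combined p-values of 0.272 and 0.486 left it undetected. The median of the 13 was -0.04, and 6 were higher and 7 lower. Klf4 had 965.7 in LIF and 1444 in LIF/CHIR, 1.495-fold higher (log2 fold change 0.58), just inside the limit. It lay outside its range at like brightness, -0.52 to 0.46. Mcl1, also inside the limit, lay outside its range of -0.32 to 0.40 on the lower side, at -0.37.

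**Figure D3:**
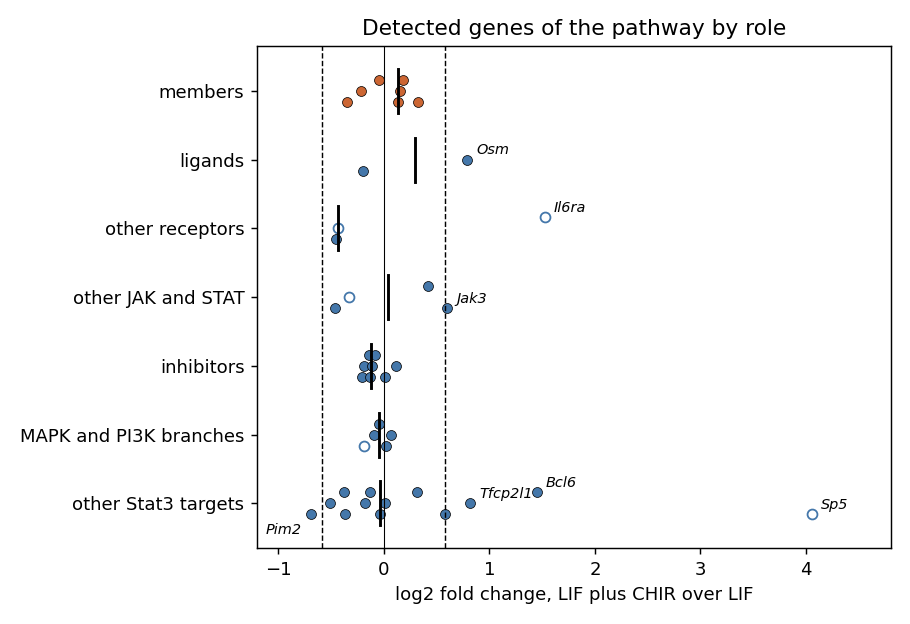
Log2 fold change of LIF/CHIR over LIF for the detected genes of the axis (orange) and of 6 further lists (blue), with open symbols for genes detected on 1 array, black bars at each median and dashed lines at 1.5-fold. The genes of the axis, the inhibitors and the branches lie inside the lines, and the genes outside them are named.

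The sequences just upstream of 4 genes are shown: Socs3, the gene of the axis that holds a motif searched, and Bcl6, Sp5 and Pim2, the other Stat3 targets past 1.5-fold that hold one. In each, the 250 bases before a RefSeq transcription start were read on the strand of the gene (build GRCm38.p6) and searched for TTCNNNGAA, the palindrome that STAT factors bind, and on both strands for CTTTGAA and CTTTGAT, which TCF factors bind. Capitals mark the motif. Socs3 (chr11:117969367-117969616, minus strand) holds 1 STAT motif, 154 to 146 bases before its start, and had a 1.13-fold higher signal with CHIR.

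Socs3: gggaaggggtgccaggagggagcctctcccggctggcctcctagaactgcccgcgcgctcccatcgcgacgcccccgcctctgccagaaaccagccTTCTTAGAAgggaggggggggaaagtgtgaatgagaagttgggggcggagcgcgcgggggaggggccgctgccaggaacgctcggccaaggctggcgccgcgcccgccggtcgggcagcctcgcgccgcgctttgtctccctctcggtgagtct

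Bcl6 (chr16:23981284-23981533, minus strand, the start of its 2 with more matches) holds 3 STAT motifs and had a 2.73-fold higher signal. Its matches begin 168, 122 and 88 bases before the start.

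Bcl6: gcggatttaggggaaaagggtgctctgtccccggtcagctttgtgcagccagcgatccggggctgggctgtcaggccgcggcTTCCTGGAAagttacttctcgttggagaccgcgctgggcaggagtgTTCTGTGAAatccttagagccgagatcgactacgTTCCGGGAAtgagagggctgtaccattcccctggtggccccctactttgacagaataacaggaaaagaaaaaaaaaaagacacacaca

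Sp5 (chr2:70474673-70474922, plus strand) holds 1 TCF motif, 104 to 98 bases before its start.

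Sp5: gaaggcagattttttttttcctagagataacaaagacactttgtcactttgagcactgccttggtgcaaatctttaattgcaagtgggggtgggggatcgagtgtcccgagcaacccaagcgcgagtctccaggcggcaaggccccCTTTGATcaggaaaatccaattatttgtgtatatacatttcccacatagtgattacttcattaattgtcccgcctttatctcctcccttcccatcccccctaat

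Pim2 (chrX:7878056-7878305, plus strand) holds 1 TCF motif, 65 to 59 bases before its start and on the opposite strand, and had a 1.61-fold lower signal.

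Pim2: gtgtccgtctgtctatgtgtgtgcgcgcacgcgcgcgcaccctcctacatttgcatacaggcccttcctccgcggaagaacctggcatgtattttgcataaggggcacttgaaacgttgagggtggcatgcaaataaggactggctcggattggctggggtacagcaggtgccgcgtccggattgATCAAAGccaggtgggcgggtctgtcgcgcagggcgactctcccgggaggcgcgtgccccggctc

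Among the 10 genes of the axis, all in the table with 12 starts, Socs3 was the gene with a STAT motif in this window and none had a TCF motif. Of all 32851 starts, 7.02% hold the STAT motif and 7.48% a TCF motif. Among the other Stat3 targets, 16 were in the table with 24 starts. Of these genes, 4 had a STAT motif, at 5 starts, and 3 had a TCF motif. A sequence in which both motifs overlap was counted for each. Counts of genes and shares of starts are unlike units, as a gene with several starts has more places to match. Zfp36, Icam1 and Sgk1 also held the STAT motif, with log2 fold changes of -0.51, -0.13 and 0.01. Sgk1 held a TCF motif too, and Tfcp2l1, past 1.5-fold, held neither motif. A match is a description of the sequence and not of binding. The sequences shown were chosen in part by fold change, so a link between motif and change was not tested.

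None of the 7 detected genes came past 1.5-fold or changed direction with quantile normalization, median scaling, either normexp correction or a higher minimum signal. Detection by signal uses the same higher minimum, and the other alternatives cannot alter the value of a gene detected on both arrays. Il6st and Jak1 had a value only where detection was set by signal, and Jak2 under no alternative. Stat3 ranged from 0.16 to 0.20 on the log2 scale, Socs3 from 0.17 to 0.21, Pim3 from -0.28 to -0.21 and Gbx2 from -0.08 to -0.05. Lifr ranged from -0.35 to -0.01, Pim1 from 0.01 to 0.34 and Tyk2 from 0.04 to 0.14. The values nearest 0 of these last 3 came from normexp background correction fitted on all identifiers.

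**Figure D4:**
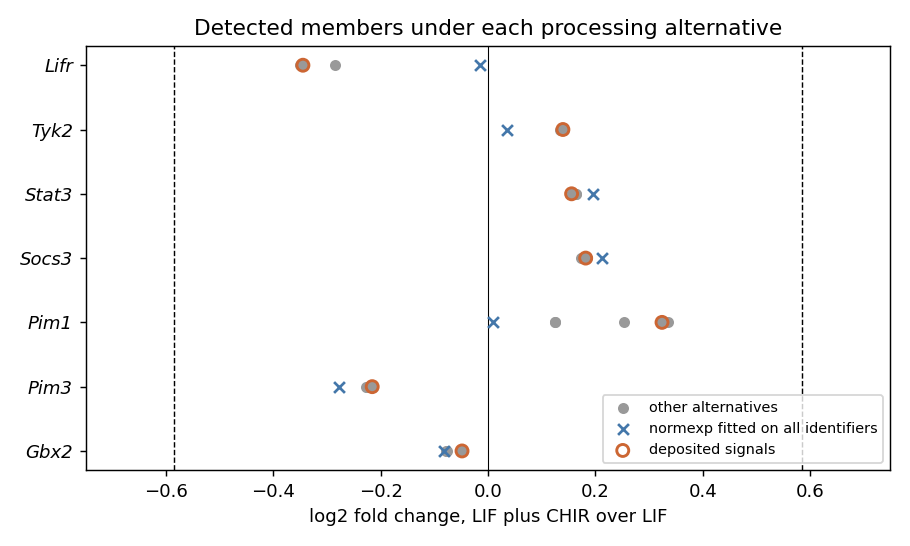
Log2 fold change of LIF/CHIR over LIF of the 7 detected genes with the deposited signals (rings), with normexp correction fitted on all identifiers (crosses) and under the other alternatives (grey), with dashed lines at 1.5-fold. No symbol crosses 0 or a dashed line, and the symbols of Lifr and Pim1 are spread the widest.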

How the data were processed

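B6 mESCs in LIF and in LIF/CHIR were measured on an Illumina beadchip each and grouped by their titles. The authors deposited linear signal intensity per identifier after background subtraction, and a detection p-value for each signal. Software and normalization are not given in the sources used here. The shorter deposited table (11702 identifiers), labelled as normalized, held the values of the longer one, labelled as not normalized, with 0 differing. It holds 7 of the 10 genes.

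Identifiers detected (p-value under 0.01) on either array entered the calculation of log2 fold changes (Python 3.11.15 with numpy 2.4.6 and pandas 2.3.3). A signal under the dimmest detected one of its array (15.1 in LIF, 14.8 in LIF/CHIR) was raised to it. An identifier was taken to have 1 probe where both p-values were multiples of 1 over the number of negative controls within 0.0005, which a p-value of 0 cannot decide. Of 105 list genes, 103 were matched by identifier and 2 by Entrez gene number. Named were the 10 genes, list genes past 1.5-fold, the 3 brightest of each list, Axin2, Sp5 and cell type markers. One gene that this rule names is not reported here. Lif, Klf4, Mcl1, Zfp36 and Icam1 were named besides these after their values were seen. The members and lists were chosen with earlier results of these data known. The calculation was tested on simulated data. Alternatives used limma 3.58.1 in R 4.3.3 (normexp with an offset of 16, quantile normalization), and detection by signal was added after the data were examined. Figures were drawn with matplotlib 3.10.9. Upstream sequences are from RefSeq. The number of arrays limits the precision.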

Additional observations from a re-analysis of the deposited data

How the results depend on the processing

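No paired analysis was possible because there was a single array for each condition. For the same reason no array could be left out and no slide could be used as a block. Of the 7 detected genes of the axis (9 with detection by signal), 0 were higher and 0 lower by 1.5-fold under every alternative run, and their median log2 fold change lay between 0.01 (normexp fitted on all identifiers) and 0.14. Of all 9615 detected identifiers, 395 were higher and 387 lower with the deposited signals. Of the same 9615, the counts were 55 and 49 with normexp fitted on all identifiers, and 129 and 85 at 2-fold. They were 247 and 273 with the minimum signal of identifiers with 1 probe. Other detection rules also changed how many identifiers entered. The counts were 682 and 684 of 11702 with 0.05 as the detection limit, and 203 and 227 of 8580 with detection on both arrays. Counts of list genes past 1.5-fold in either direction changed as follows. With normexp fitted on all identifiers, whose background SD was 588.4 in LIF against 15.4 when fitted on identifiers with 1 probe, the ligands, the other receptors and the other JAK and STAT genes went from 1 to 0 each and the other targets from 4 to 2. Bcl6 then had a log2 fold change of 0.15, Sp5 0.75, Axin2 0.94, Osm 0.05, Il6ra 0.04, Jak3 0.07 and Pim2 -0.03. With normexp fitted on identifiers with 1 probe the other JAK and STAT genes had 0 (Jak3 at 0.55) and the other targets 3 (Pim2 at -0.56). The other targets had 3 and the other receptors 0 with detection on both arrays, and the latter also had 0 with the minimum signal of identifiers with 1 probe and with detection by signal, the alternative added later. At 2-fold the ligands and the other JAK and STAT genes had 0 and the other targets 2. No called gene changed direction. Signal over background limits the dim genes, among them Lifr and Pim1.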
